A study of Mus musculus with 7 samples.

Results

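The Htr2b and Glp2r rows are 2 of the 48440 gene rows in a table of RNA-sequencing counts from mouse pancreatic islets. They were picked by Ensembl identifier, ENSMUSG00000026228.6 for Htr2b and ENSMUSG00000049928.15 for Glp2r. Both were picked with the difference between the treatment groups already known. Glp2r was named by the study from these same samples, and Htr2b by an earlier pass over the counts. Their difference between groups is therefore given here as a description, and nothing is supported by it.

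The islets came from NOD.hALOX12 mice, a line of the autoimmune-diabetes-prone NOD strain in which the coding region of mouse Alox15 was replaced in all tissues by that of human ALOX12, under the mouse regulatory elements. All 7 libraries carry this replacement. The 4 vehicle libraries came from mice given vehicle and the 3 VLX-1005 libraries from mice dosed orally at 30 mg/kg with a spray-dried dispersion (SDD) of VLX-1005, an inhibitor of human 12-lipoxygenase, both for 4 weeks. The study describes its mice as female and prediabetic. Whether each library came from its own mouse is not stated in the labels, so the p-values measure only the spread between these libraries.

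Htr2b encodes the 5-HT2B receptor, which binds serotonin and acts through the G protein Gq, phospholipase C and calcium. In mouse islets it is known from the beta cells of pregnant females, where serotonin made by the beta cells themselves acts through it on their growth. Glp2r encodes the receptor for glucagon-like peptide 2, a class B receptor that acts through Gs and cyclic AMP and is best known for its effect on the growth of the gut lining. Its ligand is cut from proglucagon, the same precursor that gives glucagon in islet alpha cells.

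Each row shares its place in the genome with a gene on the other strand. The library kit kept strand information, but the strand setting used in counting is not given in the sources used here. Reads of a receptor and of its antisense neighbour can therefore not be told apart from the counts of these rows alone. Which strand was counted was not tested. In GENCODE M21 (GRCm38, mm10), Htr2b lies on the minus strand of chromosome 1 from 86099026 to 86111970. It spans 12945 bases with 2131 exonic bases in 4 blocks. All of it lies within Psmd1, which encodes a subunit of the 19S regulatory particle of the proteasome and runs on the plus strand from 86064387 to 86139151. The exons of the genes share 252 bases, or 11.8% of the Htr2b exon bases, and these come from exon 1 of a noncoding Psmd1 transcript. No exon of a protein-coding Psmd1 transcript overlaps an Htr2b exon. The shared stretch holds 186 bases of the Htr2b 5′ untranslated region and the first 66 coding bases. The other Htr2b exon bases lie opposite introns of Psmd1, where unspliced Psmd1 reads could also fall. The 66 coding bases are printed because they lie in annotated exons of both genes. They are read along the Htr2b strand at chr1:86110817-86110882, with the start codon in capitals, from the GENCODE M21 sequence of transcript Htr2b-201.
Htr2b-201 coding start: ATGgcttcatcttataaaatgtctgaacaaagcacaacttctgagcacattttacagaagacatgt

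Glp2r lies on the minus strand of chromosome 11 from 67661502 to 67771153, a span of 109652 bases with 5815 exonic bases in 15 blocks. Its last 27489 bases, 25.1% of the span, lie opposite the end of Gas7, a gene of the plus strand from 67455437 to 67688990. Gas7 encodes an adaptor protein of the actin cytoskeleton, named for its expression in growth-arrested cells. The exons meet in 66 bases, from 67662051 to 67662116, which make up 1.13% of the Glp2r exon bases. They belong to the 3′ untranslated region of transcript Glp2r-201 and to an exon that is coding in 4 Gas7 transcripts. The other annotated Glp2r transcript, Glp2r-202, has 13 exons, and none meets a Gas7 exon. Of the 4218 tested genes, 3416 (81%) had an exon opposite another gene's exon. Of these 3416, 41.6% had a smaller share of exon bases opposite than Htr2b and 4.30% a smaller share than Glp2r. The map of the loci shows where the overlaps lie.

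**Figure D1:**
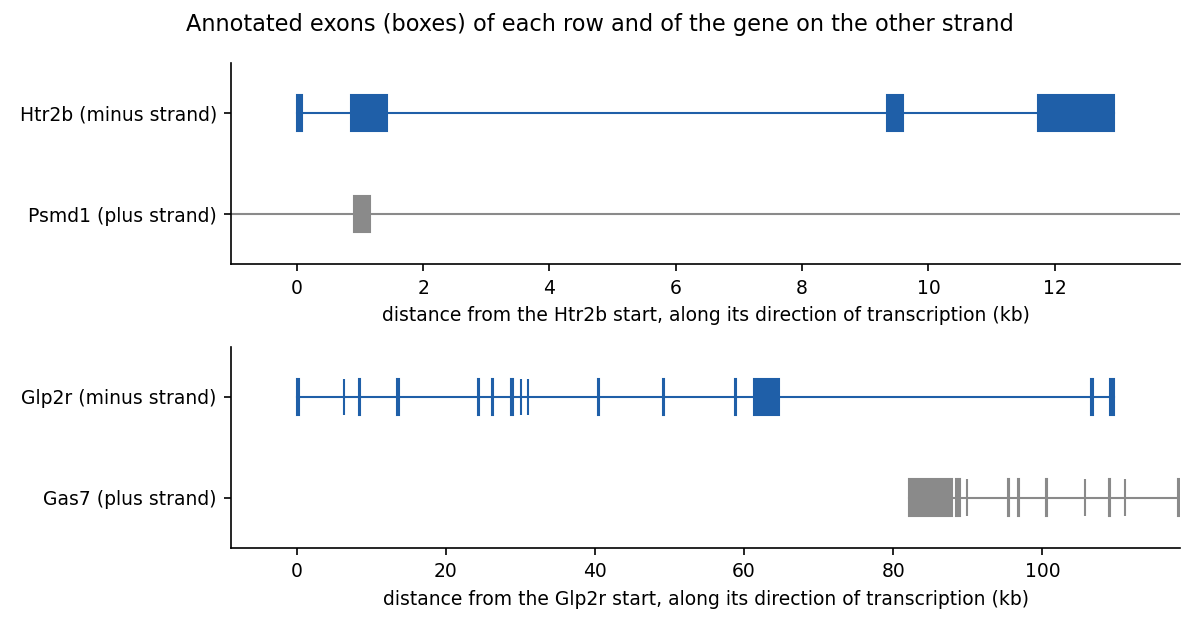
Annotated exons of Htr2b with Psmd1 (top) and of Glp2r with Gas7 (bottom), plotted as distance in kb from the start of the receptor gene along its direction of transcription. Boxes are exons of all annotated transcripts and lines are gene spans. The Psmd1 box under the second Htr2b block is the noncoding exon that shares 252 bases with it, and a Gas7 box meets a Glp2r box near the far end, in 66 bases.

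The libraries held 1024586 to 1430785 counts. Levels are given as CPM, the count of a row scaled to a common library size with edgeR's TMM factors, and 3 counts correspond to 2.04 to 2.85 CPM depending on the library. Markers of endocrine cells had counts for 7 of 7 genes (Chga the highest), with a summed level of 721 to 900 CPM in vehicle and 453 to 899 CPM in VLX-1005 libraries. The lowest sum was in VLX-1005 replicate 3. Averaged over the 7 libraries, the insulin genes Ins1 and Ins2 had 83.1 and 139 CPM, below Gcg at 162 and Chga at 278 CPM. Whether the strand setting had a part in these levels was not tested. Ribosomal RNA genes took 1.69% to 2.11% of counts in vehicle and 2.15% to 3.14% in VLX-1005 libraries, with the groups not overlapping and VLX-1005 replicate 2 the highest. In bulk islets, fewer cells of a type and less RNA per cell cannot be told apart.

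The Htr2b row was low, and higher in the VLX-1005 libraries. Vehicle replicates 1 to 4 had 7, 6, 8 and 7 counts, which is 5.84, 4.62, 7.31 and 5.47 CPM. VLX-1005 replicates 1 to 3 had 13, 28 and 14 counts, which is 8.84, 26.6 and 10.9 CPM. All 3 VLX-1005 libraries lay above all 4 vehicle libraries, and 9.46% of the tested genes did the same, while in 8.32% all VLX-1005 libraries lay below all vehicle libraries. The vehicle libraries were close together and VLX-1005 replicate 2 stood well above the others, although its library was the smallest. Its 28 counts were 50.9% of the counts of its group. Counting error alone gives VLX-1005 replicate 2 a 95% Poisson interval of 17.7 to 38.5 CPM, above the upper bounds in vehicle, of which the highest was 14.4 CPM. The interval of VLX-1005 replicate 1, 4.71 to 15.1 CPM, covered the values of 3 vehicle libraries.

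The mean Htr2b level was 5.81 ± 1.12 CPM in vehicle (SD, n = 4) and 15.5 ± 9.74 CPM with VLX-1005 (SD, n = 3), a ratio of 2.66. The variance of the vehicle counts was 0.257 of the variance that counting error would give, and that of the VLX-1005 counts 7.57 times it. The log2 fold change was 1.38 ± 0.48 (SE). By edgeR's two-sided quasi-likelihood test the unadjusted p was 0.0133 and the Benjamini-Hochberg adjusted p over all tested genes 0.169, so that the row was not called at 0.05. In the same fit 2.37% of the tested genes were called, 2.35% higher and 0.0237% lower with VLX-1005. With the ribosomal RNA share as a covariate the log2 fold change was 0.36 ± 0.61 (adjusted p = 0.977, edgeR). Without VLX-1005 replicate 2 it was 0.76 ± 0.49 (adjusted p = 0.621, edgeR). That library also had the highest ribosomal RNA share. This share did not overlap between the groups, so the fit with it as a covariate cannot tell its part from that of treatment.

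The Glp2r row was also low, and its groups overlapped. Vehicle replicates 1 to 4 had 14, 20, 7 and 18 counts, which is 11.7, 15.4, 6.40 and 14.1 CPM. VLX-1005 replicates 1 to 3 had 13, 34 and 54 counts, which is 8.84, 32.3 and 42.0 CPM. VLX-1005 replicate 1 lay inside the vehicle range, and the other VLX-1005 libraries lay above it. Among the tested genes, 23.8% had at least 2 VLX-1005 libraries above all vehicle libraries. The highest library was here VLX-1005 replicate 3, with 53.5% of the counts of its group, whereas in the Htr2b row it was VLX-1005 replicate 2. Among the 3 VLX-1005 libraries, replicate 2 was the highest in 39.3% of the tested genes and replicate 3 in 32.7%. The 95% Poisson interval of VLX-1005 replicate 3 was 31.5 to 54.8 CPM and that of replicate 2 was 22.4 to 45.2 CPM, and these overlapped.

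The mean Glp2r level was 11.9 ± 3.97 CPM in vehicle (SD, n = 4) and 27.7 ± 17.0 CPM with VLX-1005 (SD, n = 3), a ratio of 2.33. The counts varied 1.51 times as much as counting error would give in vehicle and 15.1 times as much with VLX-1005. The log2 fold change was 1.19 ± 0.48 (SE), with an unadjusted p of 0.0284 and an adjusted p of 0.212 by edgeR's quasi-likelihood test, so that the row was not called. Without VLX-1005 replicate 1 the log2 fold change was 1.63 ± 0.37 and the row was called (adjusted p = 0.0414, edgeR), as were 2.36% of the genes tested in that fit. Without VLX-1005 replicate 3 it was 0.72 ± 0.51 (adjusted p = 0.466, edgeR). The sum of the endocrine markers was lowest in VLX-1005 replicate 3, the library with the highest Glp2r level, and the part of this in the result was not tested. With the ribosomal RNA share as a covariate the log2 fold change was 1.46 ± 0.67 (adjusted p = 0.802, edgeR).

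**Figure D2:**
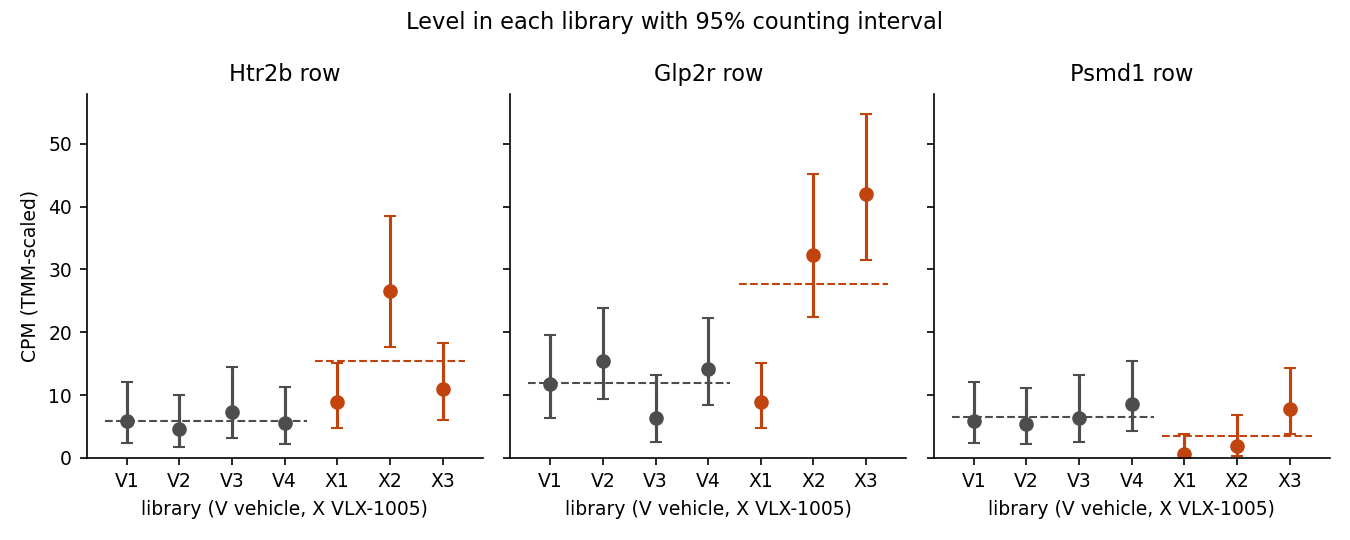
TMM-scaled CPM of the Htr2b, Glp2r and Psmd1 rows in the 4 vehicle (V, grey) and 3 VLX-1005 libraries (X, red), with 95% Poisson intervals that cover counting error only and dashed group means. X2 is highest for Htr2b at 26.6 CPM, X3 is highest for Glp2r at 42.0 CPM, and X1 lies at 8.84 CPM in both rows.

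VLX-1005 replicate 1 had 13 counts in each of the rows, the lowest value of its group in both. Per kb of exon, the mean over the 7 libraries was 4.67 CPM for Htr2b and 3.21 CPM for Glp2r, so that Htr2b was the higher per length although Glp2r had more counts. The median over the tested genes was 17.7 CPM per kb. By mean CPM, Htr2b ranked 3691 and Glp2r 2929 among the 4218 tested genes. Both rows had a log2 fold change of at least 1, a size reached by 7.68% of the tested genes, and the median over the tested genes was -0.01.

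**Figure D3:**
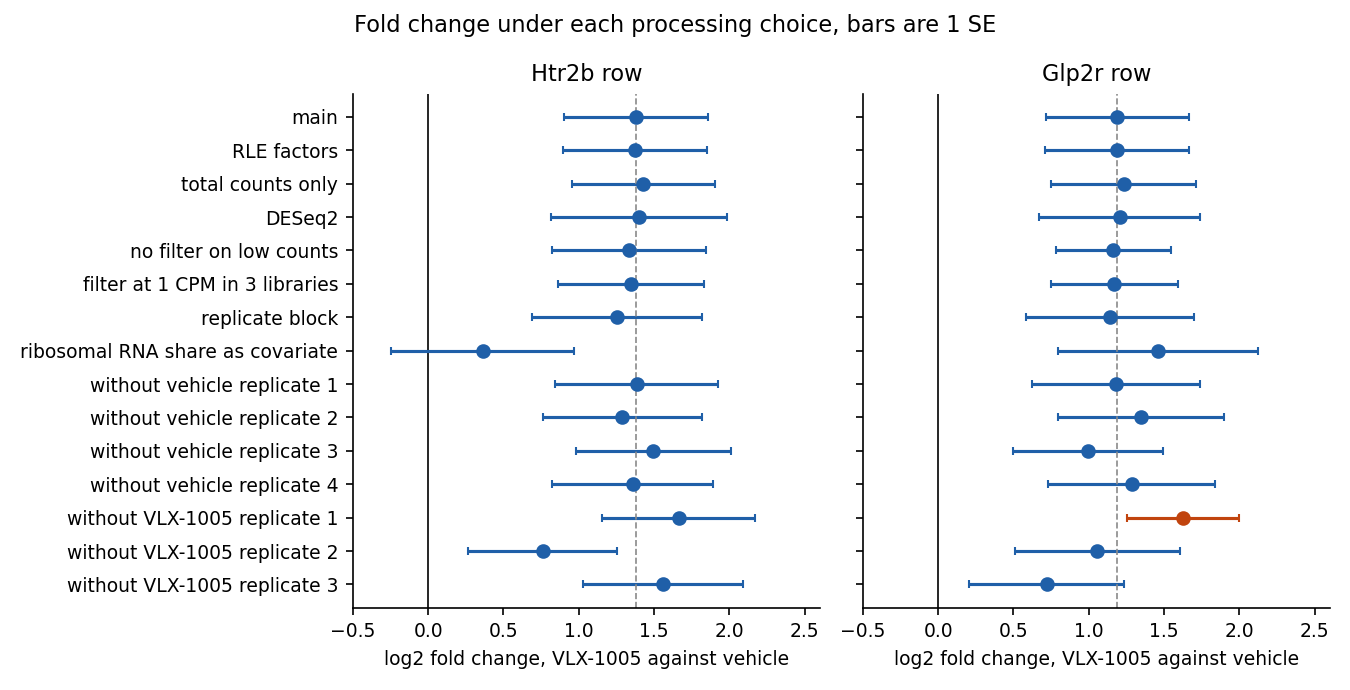
Log2 fold change of VLX-1005 against vehicle (x axis) for the Htr2b and Glp2r rows under the processing used here (main) and 14 alternatives, with bars of 1 SE and the main value as a dashed line. Each of the values is above 0, and the red point, Glp2r without VLX-1005 replicate 1 at 1.63, is the only one called at an adjusted p of 0.05.

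The genes on the other strand had few or no counts. The Psmd1 row had 7, 7, 7 and 11 counts in vehicle and 1, 2 and 10 in VLX-1005 libraries. VLX-1005 replicates 1 and 2 lay below all vehicle libraries, and replicate 3, at 7.77 CPM, lay within their range. The mean was 6.56 ± 1.42 CPM in vehicle (SD, n = 4) and 3.45 ± 3.79 CPM with VLX-1005 (SD, n = 3). The row did not pass the filter on low counts. Fitted without that filter, its log2 fold change was -0.93 ± 0.69 (adjusted p = 0.648, edgeR). In vehicle libraries the Htr2b and Psmd1 rows had similar counts, with 0.636 to 1.14 Htr2b counts for each Psmd1 count. In VLX-1005 libraries the ratio was 13, 14 and 1.4, with 1 and 2 Psmd1 counts behind the first values. The Htr2b and Psmd1 counts together were 14, 13, 15 and 18 in vehicle and 14, 30 and 24 with VLX-1005. These sums are not scaled to library size, and VLX-1005 replicate 1 was the largest library, with 1430785 counts. The Gas7 row was at 0 in all 7 libraries, which with 3 counts as the limit allows up to 2.85 CPM in a library. The Glp2r row was therefore above its partner in every library, by at least 7 counts.

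Other genes within 100 kb had almost no counts. Around Htr2b, 5 of 8 other rows were at 0 in every library, and none was tested. Besides Psmd1 they were Armc9, with 0, 5, 0 and 2 counts in vehicle and 5, 4 and 1 with VLX-1005, and 2810459M11Rik, with 1 count in all. Around Glp2r, 4 of 6 other rows were at 0 in every library, namely Gas7, Gm12301, Rcvrn and Gsg1l2. Dhrs7c had 2 counts in all and Usp43 had 1. Summed over the 7 libraries the receptor rows held more counts than any other row in these windows, whereas in the vehicle libraries alone Psmd1 had 32 counts and Htr2b 28.

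The other rows of the serotonin receptor family had few or no counts in the table. With the strand setting not known, a row at 0 does not show that its gene was not expressed. Of 13 other serotonin receptor genes, 11 were at 0 in all 7 libraries. Htr1f had 1 count in all and Htr7 had 8, or 0.285 CPM per kb. Htr2b thus held 90.2% of the 92 counts of the family. Tph1 and Tph2, which encode the tryptophan hydroxylases of the first step in making serotonin, were at 0 in every library. Ddc, of the same pathway, had 8 counts in all, in 5 libraries, and was not tested. Slc18a2, the vesicular monoamine transporter that loads serotonin into granules, was the only other gene of a serotonin system list of 22 other genes that was tested. Its level was 57.8 ± 8.60 CPM in vehicle (SD, n = 4) and 71.2 ± 13.6 CPM with VLX-1005 (SD, n = 3). It was not called, with a log2 fold change of 0.31 ± 0.21 (adjusted p = 0.468, edgeR).

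Glp2r held 75.8% of the 211 counts of the class B receptor genes listed here, which are not the whole class. This share is not scaled for exon length. Of the 8 other class B receptor genes listed, 2 were at 0 in every library. Gcgr, the glucagon receptor, had 23 counts in all, or 1.06 CPM per kb, the highest of the others. Gipr, the receptor for the incretin GIP, had 12 counts. Glp1r, the GLP-1 receptor and a known gene of beta cells, had 3 counts, all in vehicle libraries. The row of the ligand precursor was counted far above the Glp2r row. Because the strand setting is not known, this does not compare the transcripts of ligand and receptor. Gcg, which encodes proglucagon, had 176 ± 25.0 CPM in vehicle (SD, n = 4) and 145 ± 74.3 CPM with VLX-1005 (SD, n = 3), with a log2 fold change of -0.26 ± 0.28 that was not called (adjusted p = 0.648, edgeR). Pcsk2, a convertase that cuts prohormones in alpha and beta cells, had a log2 fold change of -0.27 ± 0.27 (adjusted p = 0.623, edgeR). Cpe, the carboxypeptidase that trims the cut peptides, had 0.12 ± 0.41 (adjusted p = 0.908, edgeR). Pcsk1, another convertase of this list, had 8 counts in vehicle and 12 in VLX-1005 libraries and was not tested. Of 21 other genes of the glucagon peptide and class B receptor list, 3 were tested and 0 called, with 0 at an unadjusted p under 0.05 and a median log2 fold change of -0.26.

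Signalling genes beneath the receptors were mostly too low to test. Of 21 genes of the Gq signalling list, the pathway of the 5-HT2B receptor, 19 had a count but 0 passed the filter. Of 25 genes of the Gs and cyclic AMP list, the pathway of the GLP-2 receptor, 5 were tested, 3 with a positive and 2 with a negative value, and 0 were called. At an unadjusted p under 0.05 there were also 0, and the median log2 fold change was 0.12. Prkar1a, a regulatory subunit of protein kinase A, had 0.96 ± 0.47 (adjusted p = 0.307, edgeR). Gnas, which encodes the Gs alpha subunit, had 0.51 ± 0.29 (adjusted p = 0.380, edgeR). Adcy3, an adenylyl cyclase, had -0.33 ± 0.33, and Gnal, an alpha subunit related to Gs, 0.12 ± 0.16. Pde8b, a cyclic AMP phosphodiesterase, had -0.11 ± 0.32. Of 18 genes of the 19S proteasome list, the complex of Psmd1, 5 were tested, again 3 positive and 2 negative, with a median of 0.18 and 0 called (0 at an unadjusted p under 0.05). Psmc3, one of its ATPases, had the smallest p, with 0.37 ± 0.22 (adjusted p = 0.400, edgeR). Psmd13 had -0.29, Psmd3 0.30, Psmd2 0.18 and Psmd7 -0.04, all log2 fold changes of subunits of the same particle. In DESeq2 0 genes of the serotonin system, glucagon peptide and class B receptor, Gs and cyclic AMP, and 19S proteasome lists were called either, and the Gq list had no gene to test there.

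Markers of other cells that islet preparations can hold were given beside the rows. Acinar markers had counts for 6 of 7 genes, with Amy2a5 at 0, and summed to 28.9 to 84.8 CPM in vehicle and 30.6 to 98.9 CPM with VLX-1005. Macrophage markers had counts for 4 of 5 genes, with Adgre1 at 0, and summed to 244 to 315 CPM and 270 to 305 CPM, nearly all of it from Csf1r. The Csf1r row had 2370 counts in all, against 6 for Cd68, 5 for Lyz2 and 1 for Itgam. The macrophage sum is therefore not borne out by the other macrophage markers. The Csf1r exons share 873 bases with those of Hmgxb3 on the other strand, and the part of this in the Csf1r counts was not tested. T cell markers summed to 0 to 2.50 CPM and 0.680 to 0.951 CPM, with Cd3g at 0. Duct markers summed to 6.25 to 9.25 CPM in vehicle and 8.56 to 12.4 CPM with VLX-1005, from 5 of 5 genes, and mesenchyme and stellate markers to 1.67 to 6.94 CPM and 5.44 to 10.1 CPM, with Pdgfra at 0. Endothelial markers summed to 0.914 to 9.18 CPM and 3.89 to 7.48 CPM, from 4 of 4 genes. Each of these sums overlapped between the groups, and their part in the receptor rows was not tested.

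The rows closest in pattern were found by the mean absolute difference in log2 CPM (prior count 2) over the 7 libraries, after each gene's own mean was subtracted. For Htr2b the closest were D430040D24Rik at 0.12, Gm10657 at 0.16, Grin3b at 0.17, Actn1 at 0.18 and Gm45141 at 0.18, against a median of 0.60 over 4217 genes. Among the closest to Glp2r were 8030451A03Rik at 0.22, Gm19610 at 0.22, Nudt6 at 0.22 and Gm26626 at 0.23, against a median of 0.73. D430040D24Rik, the closest to Htr2b, had 15.8, 15.4, 17.4 and 17.2 CPM in vehicle and 25.8, 65.6 and 34.2 CPM with VLX-1005, with the same order of the VLX-1005 libraries as Htr2b. Each of these 9 rows also has an annotated exon opposite another gene, among them Sema4c for D430040D24Rik, Tmem259 for Grin3b, Tnc for 8030451A03Rik, Fgf2 for Nudt6 and Runx1 for Gm26626. This held for 81% of all tested genes, and for 8460 of the 48440 rows of the table. The receptor rows were not close to each other, with a difference of 0.62, at which Glp2r was number 2408 in order of closeness to Htr2b and Htr2b number 952 in order of closeness to Glp2r.

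**Figure D4:**
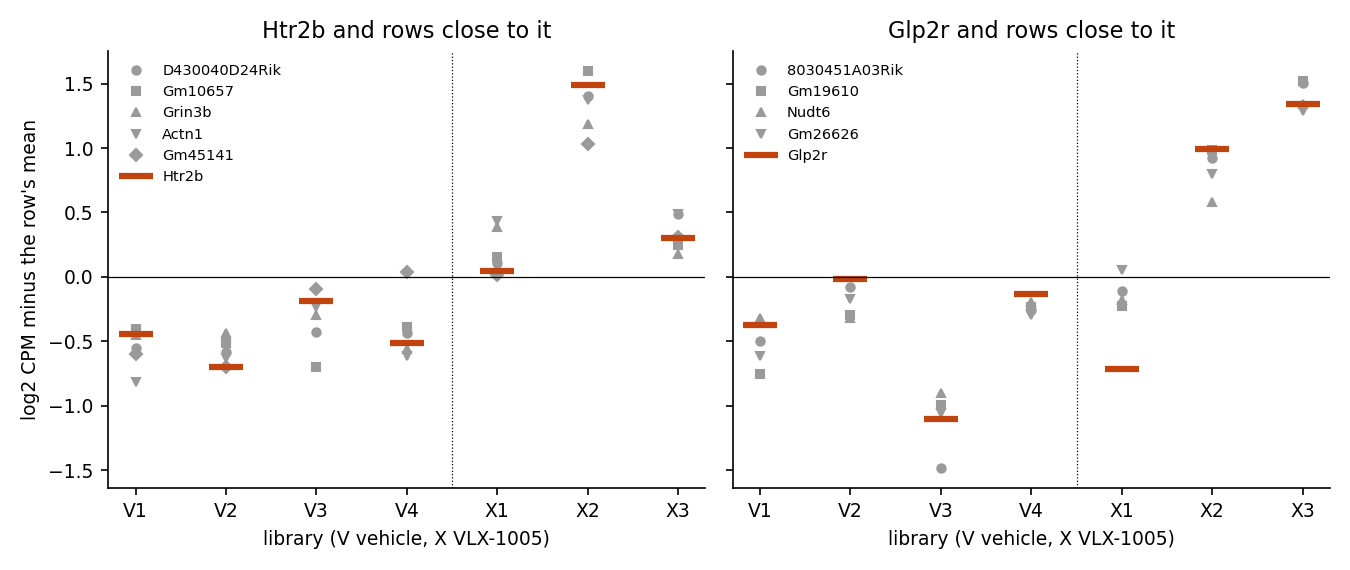
Log2 CPM minus the row's own mean (y axis) in the 7 libraries (V vehicle, X VLX-1005) for Htr2b and Glp2r (red bars) and tested rows close to each (grey symbols, 5 for Htr2b and 4 for Glp2r). The Htr2b set peaks in X2, whereas the Glp2r set is highest in X3 and lowest in V3.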

How the data were processed

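Libraries from islets of vehicle (n = 4) and VLX-1005 (n = 3) mice were sequenced on an Illumina NovaSeq after stranded TruSeq mRNA preparation. The authors deposited raw read counts per gene, made in Galaxy with Trimmomatic, HISAT2 and HTSeq on mm10. For the annotation release, tool versions and strand setting, the sources used here give nothing. Counts were fitted in edgeR 4.0.16 (R 4.3.3, limma 3.58.1) with TMM factors, the default expression filter (4218 of 48440 rows tested), robust quasi-likelihood tests and Benjamini-Hochberg adjustment, called at 0.05. DESeq2 1.42.0, the tool named by the submitters, was an alternative. Levels are TMM-scaled CPM. Poisson intervals (95%) and limits at 3 counts cover counting error only. Positions and strand partners came from GENCODE M21. Of the rows, 48058 had a position and 382 none. The fit was tested on simulated data.

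Named genes were the receptor rows, the gene with the longest exon overlap on the other strand, rows within 100 kb, up to 6 tested genes by smallest p of each of 5 lists, and the 5 rows closest in pattern. Of these, 1 row close to Glp2r is not reported here, nor are 2 marker lists. Genes with few counts in these families were named as well, after their values were seen. The rows and lists were chosen with earlier results of these data known. The 14 alternatives covered scaling, filters, DESeq2, a replicate block, the ribosomal RNA share as a covariate and each library left out.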

Additional observations from a re-analysis of the deposited data

How the results depend on the processing

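Htr2b and Glp2r kept a positive log2 fold change under all 14 alternatives. Htr2b was called in none, with values of 0.36 to 1.66 and adjusted p-values of 0.121 to 0.977 (edgeR, and DESeq2 for 1 of them). Leaving out each library gave 0.76 to 1.66, the lowest without VLX-1005 replicate 2. Glp2r was called only without VLX-1005 replicate 1 and ranged from 0.72 (with VLX-1005 replicate 3 left out) to 1.63 over the libraries left out. Over all tested genes the count of calls was 100 of 4218 in the fit used here. It was 164 of 9034 when rows needed 1 CPM in 3 libraries and 263 of 18578 with no filter on low counts. These looser filters thus called more genes but tested more as well. Of 4218 genes, 199 were called in DESeq2. With the ribosomal RNA share as a covariate 0 were called (260 at an unadjusted p under 0.05, edgeR). When each library was left out the count ranged from 14 to 203. It was 14 without vehicle replicate 1, 23 without vehicle replicate 2, 16 without vehicle replicate 3 and 18 without vehicle replicate 4. For the treated libraries it was 29 without replicate 2 of VLX-1005, and 203 without its replicate 3. The causes were not tested.

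No pairing of the samples by replicate number was seen, which does not show that there was none. Same-numbered libraries had correlations of -0.03, -0.02 and 0.09 between their deviations from the group means, and 2 of 6 libraries correlated best with their own number. With a replicate block, which drops vehicle replicate 4 from the contrast, 19 genes were called, and the log2 fold change was 1.25 ± 0.57 for Htr2b and 1.14 ± 0.56 for Glp2r, neither called (adjusted p = 0.365 and 0.395, edgeR).

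Called genes of the lists numbered 0 in the fit used here. The Gs and cyclic AMP list had 1, Pde3b, with no filter on low counts, with the filter at 1 CPM, and without VLX-1005 replicate 3. It thus ranged from 0 to 1 over the libraries left out. Those fits tested 23, 16 and 7 genes of the list. Over all genes they called 263 of 18578, 164 of 9034 and 203 of 4485. Pde3b had 7 counts in vehicle and 40 in VLX-1005 libraries. The glucagon peptide and class B receptor list ranged from 0 to 1, the 1 being Glp2r without VLX-1005 replicate 1. The Gq list had tested genes only under the looser filters, with 0 called by edgeR, and gave no value under the others. Psmd1 kept a lower mean with VLX-1005 throughout, and Gas7, at 0, had no other value. Htr2b had 83 counts and Glp2r 160 over the 7 libraries, which limits the precision of each library's value.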
